A study of Mus musculus with 12 samples.

Results

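In all, 7 genes of the release and leak of calcium from the endoplasmic reticulum (ER) were followed across 12 RNA-sequencing libraries of cultured mouse cortical glia. They were the IP3 receptor genes Itpr1, Itpr2 and Itpr3, the ryanodine receptor genes Ryr2 and Ryr3, and the leak genes Tmco1 and Tmbim6. They were taken by symbol from the table of estimated counts, and all 7 were found among its 43322 genes and passed the filter on low counts that left 17077 genes for testing. The cultures came from the frontal cortex of wild-type CD1 mice of postnatal days 3 to 5, with 1 mouse per preparation, were grown with epidermal growth factor, and carry the submitters' label of astrocytes. One group received 3 µM thapsigargin for 60 min, an inhibitor of the SERCA pumps that load the ER with calcium. Another was kept for 60 min without external calcium, in medium containing the chelator EGTA, and the control group received vehicle. Each group held 4 libraries, which the series text calls biological replicates. No source used here says whether equal numbers in different groups came from 1 culture, so p-values measure the spread between these samples.

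IP3 receptors are ER channels that open when receptor-activated phospholipase C produces inositol trisphosphate, and IP3R2, the product of Itpr2, is widely described as the main astrocytic form. Ryanodine receptors are related, larger channels that open on a rise of cytosolic calcium, and are best known from heart, muscle and neurons. Tmco1 encodes a small membrane protein reported to form a calcium channel when the ER is overfilled, and found also in a ribosome-bound translocon that inserts multi-spanning membrane proteins. Tmbim6 encodes BI-1 (Bax inhibitor 1), an ER membrane protein with calcium leak activity that also restrains the stress sensor IRE1.

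Library totals ran from 36.2 to 42.6 M counts. Levels are given as CPM, counts scaled to a normalised library size of 1 M (mega). The summed level of 14 astrocyte markers was 9487 to 11112 CPM in thapsigargin, 10933 to 12696 CPM in calcium-free and 10582 to 12226 CPM in control libraries, against 136 to 192, 158 to 225 and 162 to 254 CPM for 12 microglial markers. In thapsigargin 3 of the 14 astrocyte markers were lower than in control and 1 was higher. Replicate 4 stood apart in all 3 groups. It held Xist, the RNA of the inactive X chromosome, at 588 CPM in thapsigargin, 700 CPM in calcium-free and 740 CPM in control, where the other 9 libraries held 0.0832 to 0.319 CPM. Its summed proliferation markers were 2424, 2571 and 2640 CPM in these groups, above the 1891 to 2069 CPM of the other libraries. In such bulk samples, fewer cells of a type and less RNA per cell cannot be told apart.

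The promoter windows of Itpr2 and Tmco1 are shown because Itpr2 is the form linked to astrocytes and Tmco1 is the called gene with an entry. They are RefSeq sequences of the GRCm38.p6 assembly and run from 250 bases before to 50 bases after the annotated start, 5′ to 3′ on the gene's strand. The Itpr2 window is chr6:146502174-146502473 on the minus strand, and capitals mark its matches to the CCAAT box, 1 on each strand, with the minus-strand match reading ATTGG. The Tmco1 window is chr1:167308420-167308719 on the plus strand and has no capitals, since none of the motifs searched matched.
Itpr2: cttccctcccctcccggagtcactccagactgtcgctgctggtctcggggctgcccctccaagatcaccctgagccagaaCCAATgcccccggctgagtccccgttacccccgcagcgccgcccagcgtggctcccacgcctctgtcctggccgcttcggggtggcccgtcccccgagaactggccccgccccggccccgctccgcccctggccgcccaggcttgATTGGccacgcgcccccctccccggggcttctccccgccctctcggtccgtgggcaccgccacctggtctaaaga
Tmco1: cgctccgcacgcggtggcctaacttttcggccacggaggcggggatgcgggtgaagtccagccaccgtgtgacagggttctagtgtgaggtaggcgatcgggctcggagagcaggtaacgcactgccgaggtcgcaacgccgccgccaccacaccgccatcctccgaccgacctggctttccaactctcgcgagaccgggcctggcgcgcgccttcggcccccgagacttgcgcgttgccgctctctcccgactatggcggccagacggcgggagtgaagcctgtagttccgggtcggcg
Entries existed for 4 of the 7 genes, Itpr2, Itpr3, Ryr2 and Tmco1. Each window was searched on both strands for the ER stress response element, whose letters contain a CCAAT box, for the cyclic AMP response element TGACGTCA, for the unfolded protein response element TGACGTGG and for the ATF4 and CEBP element TTGCATCA. Among all 32851 windows of the table, 0.119%, 1.79%, 0.676% and 0.895% held these elements in that order, and none of the 4 windows did. The CCAAT box was present in 37.4% of all windows and, of the 4, in that of Itpr2. These windows held 73.3% (Itpr2), 72.3% (Itpr3), 65.3% (Ryr2) and 68.7% (Tmco1) G and C bases, where the median of all windows was 52.7%.

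To compare genes, CPM was divided by the summed exon length in kilobases (kb) given in the table. On this length-scaled scale Tmbim6 was by far the highest, at 194 ± 6.55 CPM per kb in thapsigargin, 218 ± 5.50 in calcium-free and 223 ± 8.85 in control (SD, n = 4 each, as for all errors of group means). Tmco1 followed at 21.4 ± 0.586, 24.1 ± 0.327 and 24.1 ± 0.874 CPM per kb in these groups. Itpr1 held 6.0 ± 0.225 CPM per kb in thapsigargin, 7.19 ± 1.05 in calcium-free and 5.54 ± 0.404 in control. Itpr2 was lower than Itpr1, with 4.54 ± 0.594, 4.85 ± 1.03 and 3.78 ± 0.367 CPM per kb in the same order of groups. The Itpr1 mean was 1.32 times that of Itpr2 in thapsigargin, 1.48 times in calcium-free and 1.47 times in control. Itpr3 was much lower again, at 0.598 ± 0.0999, 0.650 ± 0.0959 and 0.602 ± 0.103 CPM per kb, and the Itpr1 mean was 10.0, 11.1 and 9.21 times that of Itpr3 in these groups. Ryr2 held 0.124 ± 0.0224, 0.116 ± 0.0339 and 0.102 ± 0.0107 CPM per kb, and Ryr3 0.0660 ± 0.00971, 0.0749 ± 0.00912 and 0.0732 ± 0.00327 CPM per kb.

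The order Tmbim6, Tmco1, Itpr1, Itpr2, Itpr3, Ryr2, Ryr3 was the same in all 3 groups. Neighbours in this order overlapped between libraries only in the calcium-free group, for Itpr1 with Itpr2 and for Ryr2 with Ryr3. Among the 17077 tested genes of the control group, Tmbim6 lay at the 98.6th percentile of length-scaled level, Itpr1 at the 53.3rd, Itpr2 at the 46.0th and Ryr3 at the 3.45th. The summed level of the 3 IP3 receptor genes was 58.6 times that of Ryr2 and Ryr3 in thapsigargin, 66.5 times in calcium-free and 56.5 times in control.

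**Figure D1:**
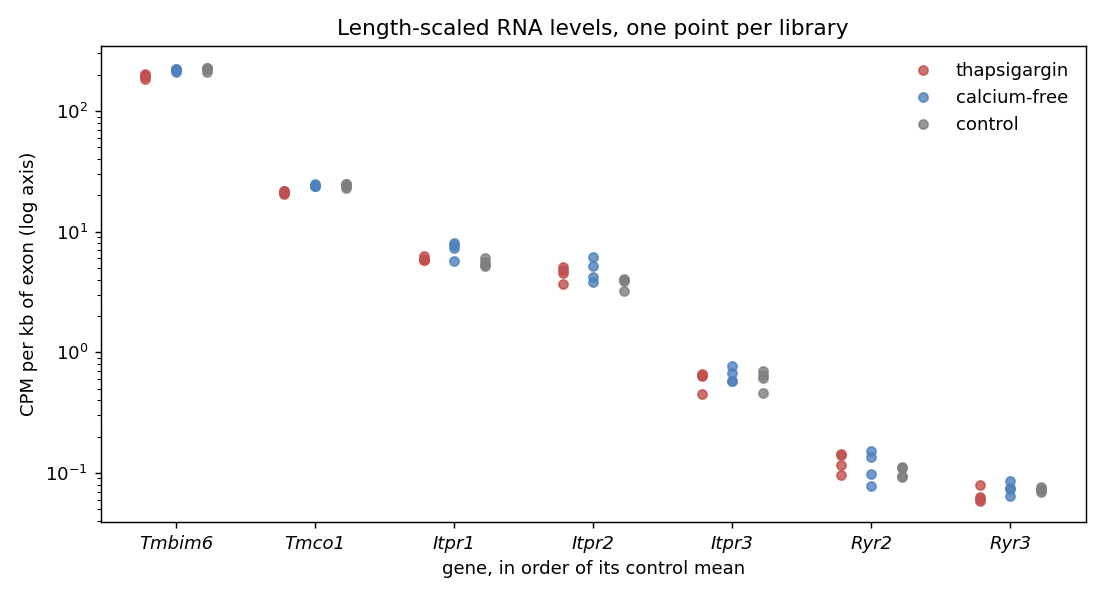
Length-scaled level (CPM per kb of exon, log axis) of each gene, one point per library, with thapsigargin left of calcium-free and control. Tmbim6 sits near 200 CPM per kb and Ryr3 below 0.1 in every library, and the order of genes is shared by the 3 groups.

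The summed length-scaled level of the IP3 receptor genes was 10.5 to 11.7 CPM per kb in thapsigargin and 10.5 to 15.0 in calcium-free libraries. In control it was 9.74 to 10.3 CPM per kb, without overlap, although each of these genes alone overlapped control in both treatments. This sum was not tested, and the share of all genes without such overlap was not counted. Within the family the shares differed little between groups. Itpr1 made up 54.0% ± 4.31 of the summed length-scaled level in thapsigargin, 56.8% ± 4.52 in calcium-free and 55.9% ± 4.25 in control. Itpr2 made up 40.6% ± 3.66, 38.1% ± 4.26 and 38.1% ± 3.34 in these groups. Itpr3 held the small remainder, 5.35% ± 0.742 in thapsigargin, 5.13% ± 0.296 in calcium-free and 6.06% ± 1.00 in control. The spread within groups was largely that of replicate 4, and each gene's 4 same-numbered differences between thapsigargin and control had 1 sign: the Itpr1 and Itpr3 shares were lower in thapsigargin and the Itpr2 share higher. These shares were not tested. Of the summed length-scaled level of Ryr1, Ryr2 and Ryr3, Ryr2 took 61.4% ± 5.49 in thapsigargin, 56.7% ± 5.36 in calcium-free and 53.6% ± 2.57 in control. Ryr1, the skeletal muscle form, had 5 to 13.25 counts per library and did not pass the filter.

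The design asked which calcium signalling genes change after SERCA block and without external calcium. Called means an adjusted p under 0.05 in the edgeR quasi-likelihood test with Benjamini-Hochberg adjustment over all tested genes. After thapsigargin, Tmco1 and Tmbim6 were lower than in control and the other 5 genes were not called, so 0 of 7 were higher and 2 of 7 lower, also by DESeq2 and at an unadjusted p under 0.05. Of all tested genes 31.2% were called in this comparison, 16.4% higher and 14.8% lower. The median log2 fold change was -0.01 over the 7 genes and -0.05 over all tested genes. Without external calcium, Itpr1 was higher than in control and no other of the 7 was called, while Itpr2 too had an unadjusted p under 0.05 in edgeR. Of all tested genes 5.33% were called there, 3.78% higher and 1.55% lower, and the median log2 fold change was 0.11 over the 7 genes and -0.01 over all. Between thapsigargin and calcium-free, Tmco1 and Tmbim6 were lower in thapsigargin. In that comparison 27.9% of all tested genes were called, 14.6% higher and 13.2% lower. For thapsigargin the share of members called lies near that of all tested genes, and for calcium-free it rests on 1 gene. With upper-quartile factors 524 genes were higher and 372 lower without external calcium, beside 646 and 265 here. The comparisons with control share the control libraries, and both comparisons of thapsigargin share its libraries.

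**Figure D2:**
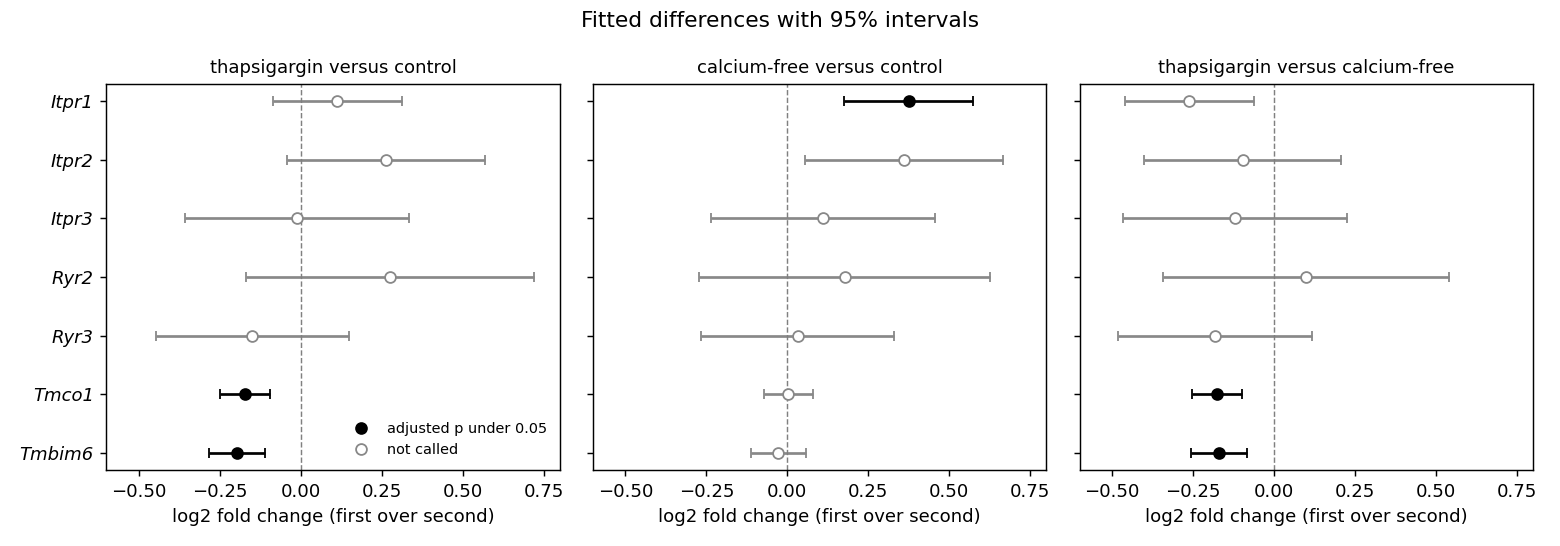
Fitted log2 fold change of each gene with its 95% interval in the 3 comparisons, first-named group over second. Filled points were called: Tmco1 and Tmbim6 at -0.17 and -0.20 for thapsigargin over control, and Itpr1 at 0.37 for calcium-free over control.

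Itpr1, on chr6:108190044-108528077 of GRCm39 (plus strand), held 62.7, 63.3, 62.4 and 67.6 CPM in thapsigargin replicates 1 to 4. The calcium-free replicates held 60.8, 77.5, 86.4 and 82.1 CPM, and the control replicates 60.0, 55.4, 56.4 and 64.9 CPM. All calcium-free libraries but 1 stood above every control and thapsigargin library, and that 1, replicate 1, lay among the controls, so the groups overlapped. The fitted log2 fold change of calcium-free over control was 0.37 ± 0.09 (SE; edgeR adjusted p = 0.0368), a 1.30-fold difference, and each calcium-free library was higher than the control of the same number. This call was lost on leaving out any 1 of 9 of the 12 libraries, with log2 fold changes of 0.31 to 0.47 over the 12 such fits and an adjusted p of up to 0.121. Without calcium-free replicate 1 the log2 fold change was 0.47 ± 0.06 (adjusted p = 0.00143), and without replicate 4 of all groups it was 0.39 ± 0.11 (adjusted p = 0.0587).

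Itpr1 was not called for thapsigargin over control, with a log2 fold change of 0.11 ± 0.09 and a 95% interval of -0.09 to 0.31 (edgeR adjusted p = 0.399). Each thapsigargin library was above the control of its number, and in replicates 1 to 3 all thapsigargin libraries were above all controls. The groups overlapped through control replicate 4. Set directly against calcium-free, thapsigargin gave -0.26 ± 0.09 (adjusted p = 0.0513), just outside the threshold. With the replicate number as a block that adjusted p was 0.0433, with a log2 fold change of -0.26.

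Itpr2, on chr6:146009797-146403757 (minus strand), held 60.6, 64.8, 58.0 and 47.1 CPM in thapsigargin replicates 1 to 4. Calcium-free replicates held 53.7, 65.7, 78.1 and 48.9 CPM, and control replicates 51.4, 50.1, 49.4 and 41.1 CPM. Replicate 4 was the lowest library in each group, and through it the groups overlapped. Among replicates 1 to 3, every thapsigargin and every calcium-free library lay above every control library, and all 4 same-numbered differences were positive in both treatments. Itpr2 was nevertheless not called, with log2 fold changes of 0.26 ± 0.14 for thapsigargin (edgeR adjusted p = 0.187) and 0.36 ± 0.14 for calcium-free (adjusted p = 0.191) over control. Without replicate 4 the values were 0.32 ± 0.12 (adjusted p = 0.0709) for thapsigargin and 0.39 ± 0.12 (adjusted p = 0.0785) for calcium-free. With the replicate number as a block they were 0.26 ± 0.10 (adjusted p = 0.0624) and 0.35 ± 0.10 (adjusted p = 0.0524). Thapsigargin over calcium-free was -0.10 ± 0.14 (95% interval -0.40 to 0.21).

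**Figure D3:**
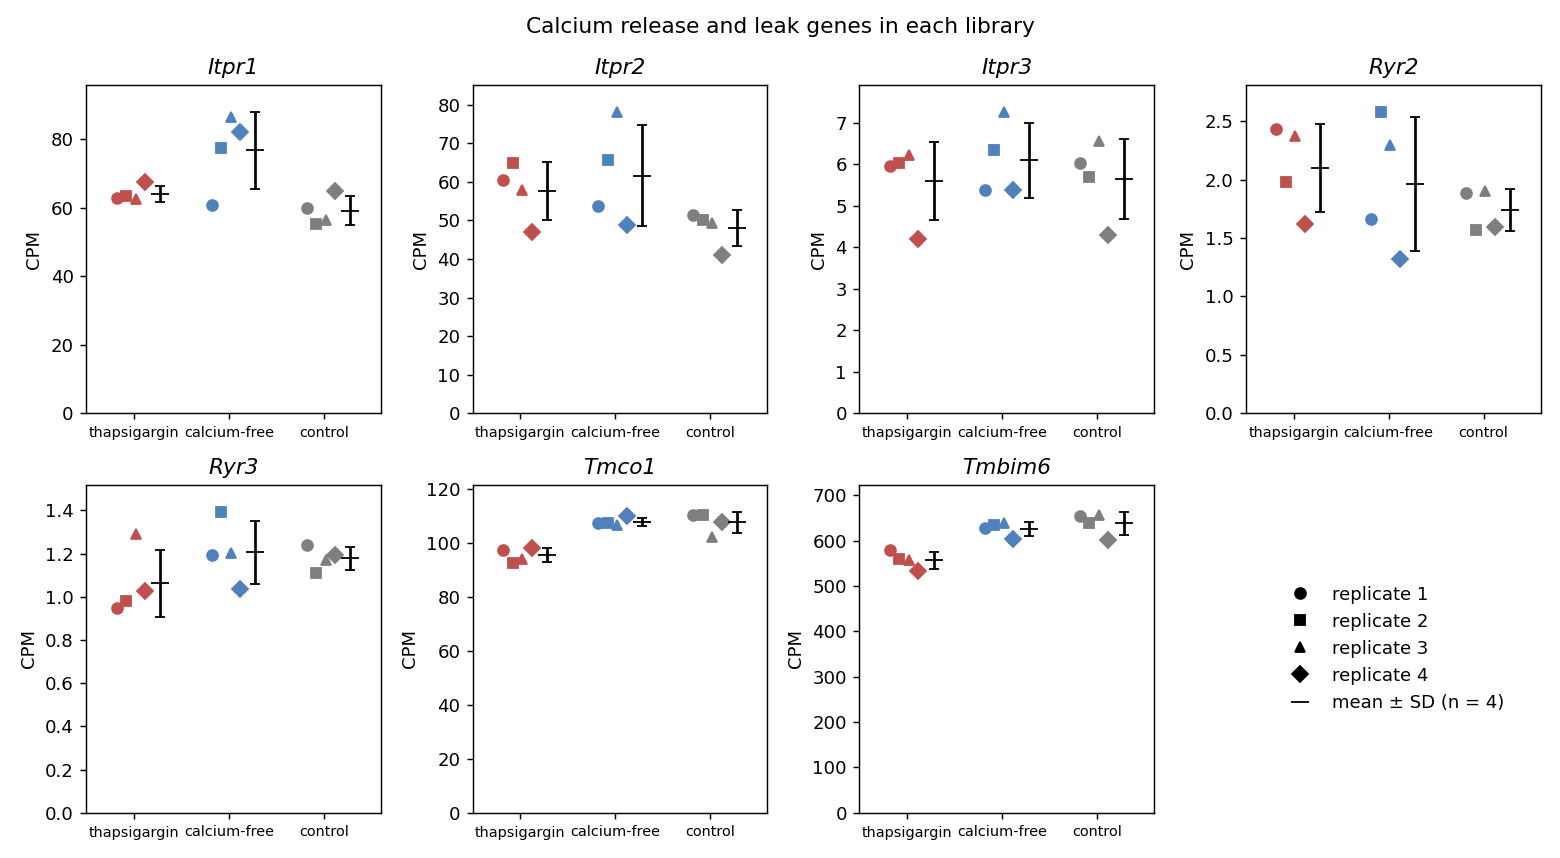
CPM of each gene in every library from 0 upward, with marker shapes for replicate numbers and bars for mean ± SD (n = 4). Thapsigargin lies below both other groups for Tmco1 and Tmbim6, calcium-free replicates 2 to 4 lie highest for Itpr1, and replicate 4 is lowest in each group for Itpr2.

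Itpr3, on chr17:27275976-27341197 (plus strand), encodes the form best known from epithelia and was low in these cultures, with 180 to 272 counts per library. Its CPM was 5.96, 6.04, 6.22 and 4.21 in thapsigargin, 5.38, 6.35, 7.26 and 5.39 in calcium-free and 6.04, 5.70, 6.56 and 4.29 in control. The groups overlapped throughout, and replicate 4 was the lowest library of the thapsigargin and control groups. Thapsigargin over control was -0.01 ± 0.16 (95% interval -0.36 to 0.34) and calcium-free over control 0.11 ± 0.16 (95% interval -0.24 to 0.46) on the log2 scale. Neither was called.

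The ryanodine receptor genes rested on few counts, 55 to 105 per library for Ryr2 and 41 to 56 for Ryr3. Ryr2, the cardiac form, on chr13:11567985-12121831 (minus strand), held 2.43, 1.98, 2.38 and 1.62 CPM in thapsigargin, 1.66, 2.58, 2.30 and 1.32 CPM in calcium-free and 1.88, 1.57, 1.91 and 1.60 CPM in control. The groups overlapped, although each thapsigargin library was above the control of its number. The log2 fold change was 0.28 ± 0.20 for thapsigargin over control (95% interval -0.17 to 0.72; edgeR adjusted p = 0.353) and 0.18 ± 0.21 for calcium-free over control (adjusted p = 0.794). Ryr3, on chr2:112461699-113047755 (minus strand), held 0.950, 0.980, 1.29 and 1.03 CPM in thapsigargin, 1.19, 1.39, 1.20 and 1.04 CPM in calcium-free and 1.24, 1.11, 1.17 and 1.19 CPM in control. Its thapsigargin replicate 3 was above every control library and the other 3 were below them. The log2 fold change was -0.15 ± 0.14 for thapsigargin (95% interval -0.45 to 0.15; adjusted p = 0.481) and 0.03 ± 0.14 for calcium-free (adjusted p = 0.981). At this depth the intervals of both genes include changes in either direction.

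Tmco1, on chr1:167136239-167161547 (plus strand), held 97.5, 92.7, 94.3 and 98.2 CPM in thapsigargin replicates 1 to 4. It held 107.7, 107.4, 106.8 and 110.2 CPM in calcium-free and 110.7, 110.3, 102.2 and 107.9 CPM in control. Every thapsigargin library was below every library of the other groups. The log2 fold change of thapsigargin over control was -0.17 ± 0.04 (edgeR adjusted p = 0.00265), a ratio of 0.888, and that of thapsigargin over calcium-free was -0.18 ± 0.04 (adjusted p = 0.00302). Calcium-free over control lay between -0.07 and 0.08 on the log2 scale (95% interval; adjusted p = 0.991).

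Tmbim6, on chr15:99290828-99307930 (plus strand), showed the same pattern at a higher level. Its thapsigargin replicates held 578.2, 558.3, 557.1 and 532.4 CPM. Its calcium-free replicates held 627.9, 634.3, 637.9 and 603.0 CPM, and its control replicates 654.7, 639.5, 656.2 and 601.8 CPM. All 4 thapsigargin libraries were below all libraries of the other groups, and replicate 4 was the lowest of each group. The log2 fold change was -0.20 ± 0.04 for thapsigargin over control (edgeR adjusted p = 0.0022), a ratio of 0.872, and -0.17 ± 0.04 for thapsigargin over calcium-free (adjusted p = 0.00696). Calcium-free over control was -0.03 ± 0.04 (95% interval -0.11 to 0.06). In the same thapsigargin libraries, where Tmco1 and Tmbim6 fell, the sums of several marker lists were lower too. The 11 neuron markers summed to 355 to 394 CPM in thapsigargin and 402 to 433 CPM in control, without overlap. That sum was mostly Map2 and Stmn2, and of its 9 tested genes Stmn2 was called lower and Gad1 (0.29 ± 0.08) higher. The 11 vascular and fibroblast markers summed to 2130 to 2916 CPM in thapsigargin and 2493 to 3449 CPM in control, overlapping through replicate 4. Acta2 alone averaged 1692 CPM in thapsigargin and 1956 CPM in control, and was the only one of the 10 tested genes of that list called. The endothelial markers Pecam1, Kdr and Flt1 averaged 0.499, 7.21 and 5.50 CPM in thapsigargin and 0.497, 6.58 and 5.24 CPM in control. In replicates 1 to 3 the astrocyte sums were 10200 to 11112 CPM in thapsigargin and 12053 to 12226 CPM in control. The microglial sums were 184 to 192 CPM and 240 to 254 CPM there, so the overlap of both sums over all libraries came from replicate 4. Of 14 astrocyte markers 3 were called lower and 1 higher, and of 12 microglial markers 2 lower and 0 higher. Slc1a3 alone averaged 2181 CPM in thapsigargin and 2638 CPM in control. The proliferation sums overlapped in replicates 1 to 3, at 1891 to 1963 CPM in thapsigargin and 1950 to 1955 CPM in control. The part of these marker differences in the result was not tested.

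The receptor genes are among the longest measured, with 9381 to 16957 bases of exon, whereas Tmco1 has 4474 and Tmbim6 2864 bases. Over the 2016 tested genes of at least 9 kb, the median log2 ratio of CPM to the control mean was 0.08, 0.09, 0.08 and 0.10 in thapsigargin replicates 1 to 4. It was 0.01, 0.08, 0.11 and 0.05 in calcium-free and -0.00, -0.01, -0.03 and 0.05 in control replicates. Calcium-free replicate 1 was the lowest of its group in this median too, as it was for Itpr1. The same library held Hes1, a Notch target picked after its values were seen, at 63.9 CPM. Calcium-free replicates 2 to 4 held Hes1 at 59.0, 55.6 and 79.9 CPM. Control libraries held 7.78 to 11.6 CPM and thapsigargin libraries 21.2 to 33.0 CPM. How far the treatment took effect in calcium-free replicate 1 was not tested. With the trend of log2 fold change on exon length removed, Itpr1 gave 0.35 ± 0.09 for calcium-free over control (edgeR adjusted p = 0.0492), and Itpr2 0.17 ± 0.14 for thapsigargin over control. Under the same correction Tmco1 was -0.22 ± 0.04 and Tmbim6 -0.21 ± 0.04 for thapsigargin over control.

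**Figure D4:**
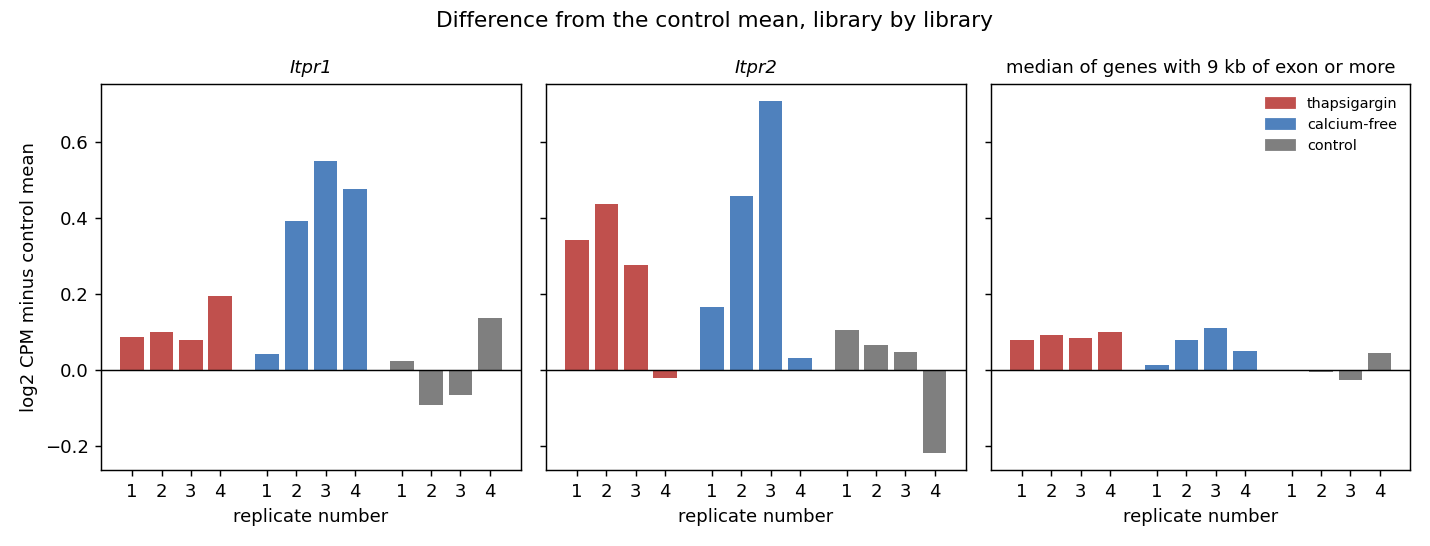
Log2 CPM minus the control mean of Itpr1, Itpr2 and the median of the 2016 tested genes with at least 9 kb of exon, one bar per library. For Itpr1, calcium-free replicates 2 to 4 stand at 0.39, 0.55 and 0.48 and replicate 1 at 0.04, while the long-gene median stays between -0.03 and 0.11 in all 12 libraries.

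Replicate 4 lay outside the range of replicates 1 to 3 in every group for Itpr2 and Tmbim6, and in some groups for each other member. How many of all genes lay outside in this way was not counted. The Itpr2 level of replicate 4 was 0.771, 0.743 and 0.818 times the mean of replicates 1 to 3 in thapsigargin, calcium-free and control. Itpr3 stood at 0.693, 0.852 and 0.704 times that mean in the same groups. Itpr1 went the other way, with 1.08, 1.10 and 1.13 times the mean of replicates 1 to 3. Tmbim6 was at 0.943, 0.952 and 0.926 times that mean, and Tmco1 at 1.04, 1.03 and 1.00 times. On few counts, Ryr2 was at 0.715, 0.607 and 0.895 times and Ryr3 at 0.956, 0.820 and 1.02 times. In every group replicate 4 also had higher proliferation and oligodendrocyte lineage sums, and lower astrocyte, microglial, neuron and vascular and fibroblast sums, than each of replicates 1 to 3. The oligodendrocyte lineage sum was mostly Olig1, which averaged 1201, 1289 and 1329 CPM in thapsigargin, calcium-free and control. Sox10 of that list averaged 0.0805, 0.0393 and 0.0561 CPM. The vascular and fibroblast sum was mostly Acta2, Col1a1 and Col1a2. Its microglial sum in thapsigargin was 136 CPM, against 184 to 192 CPM in replicates 1 to 3, and its vascular and fibroblast sum 2130 CPM, against 2855 to 2916 CPM. The part of these markers and of the Xist signal in the differences of replicate 4 was not tested.

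Altogether 9 lists of genes that act with these channels were read from the same fit, 128 genes in all, of which 119 were tested. After thapsigargin 12 were higher and 32 lower, 37.0% of those tested, beside 31.2% of all tested genes. Of all tested genes 16.4% were higher and 14.8% lower there, the shares to set beside the counts of each list below. Without external calcium 3 were higher and 1 lower, 3.36%, beside 5.33% of all tested genes. The 4 calls without external calcium lay in the lists of IP3 receptor partners and of leak paths, and the other 7 lists held 0 by edgeR. Over all lists there, 14 genes were higher and 4 lower at an unadjusted p under 0.05, 8 and 2 were called by DESeq2, and 14 and 6 by edgeR with the replicate number as a block. With that block 23 were higher and 40 lower after thapsigargin.

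Around the IP3 receptor, 24 partner genes were tested, of which 2 rose and 5 fell after thapsigargin and 3 rose without external calcium. Mcl1, an anti-apoptotic BCL2 family member that binds the receptor, averaged 295 ± 8.01 CPM in thapsigargin, 214 ± 12.2 in calcium-free and 164 ± 10.1 in control. Its log2 fold change over control was 0.84 ± 0.05 in thapsigargin (edgeR adjusted p = 7.21e-07) and 0.38 ± 0.05 in calcium-free (adjusted p = 0.00171). Itprip, whose product binds the receptor and alters its calcium sensitivity, rose by 0.39 ± 0.05 and 0.21 ± 0.05 in the same comparisons. Of the 10 genes of receptor ubiquitination and degradation, Ube2g2 rose by 0.51 ± 0.06 after thapsigargin and Erlin2, part of the complex that recognises activated receptors, fell by 0.31 ± 0.05. The median log2 fold change after thapsigargin was -0.01 over the partners and 0.03 over these 10 genes, beside -0.05 over all tested genes. The shares of both lists called after thapsigargin lay near or below the 31.2% of all tested genes.

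The lists of supply and removal of inositol trisphosphate held calls after thapsigargin at shares near or below the 31.2% of all tested genes. Of 14 phospholipase C genes, Plcb4 (0.39 ± 0.05) and Plch1 (0.40 ± 0.08) rose and Plcb3 (-0.20 ± 0.05) fell after thapsigargin. Of 18 genes of inositol phosphate metabolism, 4 rose and 2 fell after thapsigargin. The median log2 fold changes of these lists were 0.07 and 0.09. Itpkc, a kinase that converts inositol trisphosphate to the tetrakisphosphate, averaged 9.06 ± 0.294 CPM in thapsigargin, 5.76 ± 0.369 in calcium-free and 5.34 ± 0.299 in control, with a log2 fold change of 0.76 ± 0.07 for thapsigargin over control (edgeR adjusted p = 7.65e-06). Impa1, an inositol monophosphatase, fell by 0.21 ± 0.04 there.

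Of 20 tested ryanodine receptor partners, 1 rose and 8 fell after thapsigargin, with a median log2 fold change of -0.16. Calm3, a calmodulin gene, fell by 0.19 ± 0.03. Of 8 tested genes of other intracellular release channels and their counter-ion channels, 1 rose and 3 fell after thapsigargin, with a median of -0.14. Tpcn2, an endolysosomal channel, rose by 0.37 ± 0.10 and Pkd1, the polycystin-1 gene, fell by 0.57 ± 0.13.

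Of 7 genes whose products sit with TMCO1 in or near the multi-pass translocon, 5 fell after thapsigargin and 0 rose, by edgeR, by DESeq2 and at an unadjusted p under 0.05, with a median log2 fold change of -0.21, beside -0.05 over all tested genes. Nomo1 averaged 128 ± 1.56 CPM in thapsigargin, 159.7 ± 4.86 in calcium-free and 154 ± 1.44 in control, with a log2 fold change of -0.27 ± 0.03 for thapsigargin over control (edgeR adjusted p = 4.19e-05). Ccdc47, whose loss in mammals disturbs ER calcium handling, gave -0.23 ± 0.04 (adjusted p = 0.00128). The other 3 that fell, named after their values were seen, were Wdr83os (-0.46 ± 0.07), Tmem147 (-0.21 ± 0.04) and Emc10 (-0.20 ± 0.05). Ncln, the nicalin gene, was at 0.08 ± 0.04 and was not called.

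Of the 5 other TMBIM family genes tested, 2 fell after thapsigargin and 0 rose, by edgeR, by DESeq2 and at an unadjusted p under 0.05, with a median log2 fold change of -0.04. With RLE factors 1 of these falls was called. They were Ghitm, a mitochondrial inner membrane member, at -0.21 ± 0.05 (edgeR adjusted p = 0.00747), and Tmbim4, a Golgi member, at -0.21 ± 0.07 (adjusted p = 0.0369). Of 14 genes of other proposed leak paths, 1 rose and 6 fell after thapsigargin, with a median of -0.05, and 1 fell without external calcium. Trpc1, a cation channel gene, rose by 0.55 ± 0.07, and Sec61b, a subunit of the translocon that has been described as a leak path, fell by 0.40 ± 0.05.

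**Figure D5:**
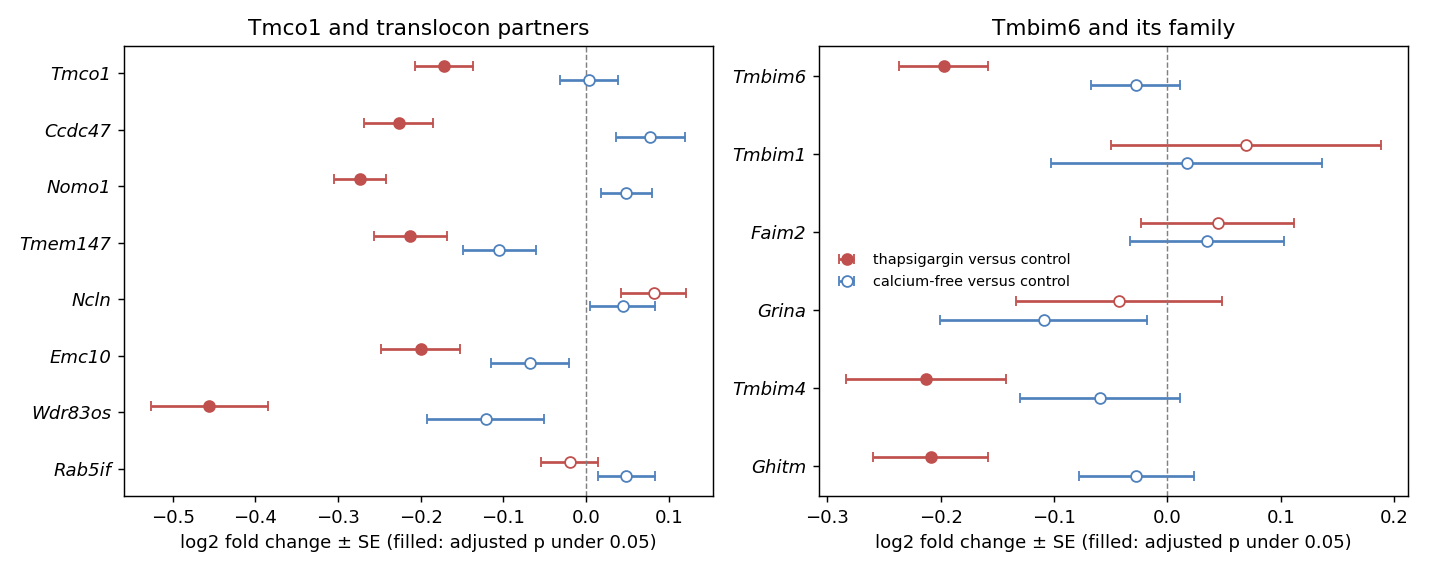
Log2 fold change over control ± SE of Tmco1 with its translocon partners and of Tmbim6 with its family, for thapsigargin (red) and calcium-free (blue), filled where called. Every filled point is a thapsigargin value, between -0.46 for Wdr83os and -0.17 for Tmco1, and Ncln and Rab5if stay unfilled.

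The genes most like each member were found by Pearson's r of log2 CPM over the 12 libraries, among the 11441 protein-coding genes that averaged 2 or more on that scale. These correlations are descriptions, and the libraries share their treatment groups and replicate numbers. Itpr1 was most like Insr (r = 0.982), Gbf1 (0.974) and Lmtk2 (0.972), and Itpr2 most like Peak1 (0.963), Tecpr2 (0.962) and Ppfibp1 (0.962). Tmco1 was most like Prkar1a (0.982), Mrps25 (0.977) and Spcs2 (0.975), and Tmbim6 most like Cox6c (0.995), Tmem176b (0.992) and Pccb (0.988). For Itpr3 the nearest gene was Ywhag (0.946), for Ryr2 Cmya5 (0.875) and for Ryr3 Cnnm2 (0.804). Without replicate 4, over 9 libraries, these values for the nearest genes were 0.983 (Insr), 0.988 (Peak1), 0.979 (Prkar1a), 0.997 (Cox6c), 0.853 (Ywhag), 0.883 (Cmya5) and 0.854 (Cnnm2). Between members, Itpr1 and Itpr2 had r = 0.453 over all 12 libraries and 0.920 over the 9 without replicate 4. Tmco1 and Tmbim6 had r = 0.772 and 0.901 in the same sets.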

How the data were processed

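Poly-A RNA of 12 libraries was sequenced. The tools named in the submitters' processing notes are STAR 2.7.2b, featureCounts 1.6.4, cutadapt 1.17 and bcl2fastq 2.20.0.422, with the build GRCm39. For the strand setting and options nothing is given in the sources used here. The authors deposited estimated counts per gene, of which 14.2% to 15.9% per library were not whole. These were rounded before testing. Annotated genes that overlap Itpr1, Itpr2 or Itpr3 held a mean of at most 0.986 counts. No molecular identifiers are described, so intervals cover counting error and the spread between samples.

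Counts were tested with edgeR 4.0.16 in R 4.3.3 (quasi-likelihood, robust, TMM factors, default filter with groups, minimum count 10, 1 mean per group over all 12 libraries), with Benjamini-Hochberg adjustment over 17077 genes per comparison and calls at an adjusted p under 0.05. The code was tested on simulated counts. Groups and numbers came from the sample titles. The members and lists were chosen with earlier results of these data known. Values are given for the 7 members, for the 2 genes of smallest p in each list, for each called gene of lists with 3 or fewer, and for the 3 genes most like each member, and 1 gene that this rule names is not reported here.

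Deviations from the group means of same-numbered libraries had r from 0.159 to 0.836 over 12 pairs, highest for replicate 4 (0.814 to 0.836). Among replicates 1 to 3, pairs of equal number gave 0.159 to 0.392 and pairs of unequal number 0.238 to 0.412. Since all 12 exceeded 0.1, replicate number was fitted as a block in an alternative. The pairs of unequal number exceeded 0.1 too, so this level does not show a shared culture among replicates 1 to 3. Other alternatives were RLE and upper-quartile factors, no filter, an exon length correction, 2 groups only, DESeq2 1.42.0, and leaving out libraries.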

Additional observations from a re-analysis of the deposited data

Results flagged for a closer look

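Of 21 sets of 4 libraries (7 genes in 3 groups), 2 had a library whose gap to its nearest neighbour exceeded Dixon's 95% critical value for 4 samples, where chance gives about 1 in 20. Both were thapsigargin replicate 4. Itpr1 was highest there at 67.6 CPM, with a gap of 0.830 of the range. Itpr3 was lowest there at 4.21 CPM, with a gap of 0.870 of the range.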

How the results depend on the processing

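After thapsigargin, Tmco1 and Tmbim6 were called lower than control under all 23 alternatives, at -0.22 to -0.14 and -0.23 to -0.16. The count of called members stayed 2 except with the replicate block without calcium-free replicate 1 (chosen after seeing the data), where it was 4: Itpr1 (0.11, adjusted p = 0.0152) and Itpr2 (0.26, adjusted p = 0.00987) were then higher. For calcium-free over control the count was 1, and 0 with only the 2 groups compared, without replicate 4 of all groups, and with the replicate block without replicate 4. It was 2 with the block without calcium-free replicate 1. It ranged from 0 to 1 on leaving out 1 library, and only the fits without thapsigargin replicate 4, calcium-free replicate 1 or control replicate 4 kept Itpr1. For thapsigargin over calcium-free the count was 2, and 1 without the filter (Tmbim6 adjusted p = 0.0518). It was 4 with the block without calcium-free replicate 1. It ranged from 2 to 3 on leaving out 1 library, and was 3 (Itpr1 added, lower) with the block, DESeq2, upper-quartile factors or the length correction. The block by replicate number alone changed no other call of a member: calcium-free over control stayed at 1, with Itpr1 at 0.37 (adjusted p = 0.0266). Over all genes it raised calls after thapsigargin to 3920 higher and 4817 lower, beside 2800 and 2531, and without external calcium to 1771 and 1197, beside 646 and 265. Leaving out 1 library, calls without external calcium were fewest without calcium-free replicate 2, at 296 and 76. Upper-quartile factors moved the share of higher among called genes without external calcium to 58.5%, beside 70.9%. No single-member direction of a call was reversed, the order of length-scaled levels held in 21 of 21 positions, and the level of Tmco1 in calcium-free was 23.8 CPM per kb without replicate 4. The cause of each shift was not tested. Low counts limit Ryr2 and Ryr3.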
